A study of Mus musculus with 4 samples.

Results

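The genes described here are the granzymes Gzma, Gzmb and Gzmk, perforin (Prf1), the granule membrane protein gene Nkg7, Fas ligand (Fasl) and the chemokines Ccl3, Ccl4, Ccl5 and Xcl1. They are 10 named effector genes of T and NK cells, and all 10 were found by symbol among the 32285 genes of the deposited matrix. Their UMIs (unique molecular identifiers, each a captured transcript 3′ end counted once) were summed over lymphocytes gated by receptor genes. The study assayed single live cells of the mouse small-intestinal epithelial layer, jejunum and ileum without Peyer's patches, by droplet sequencing. All mice were C57BL/6J males on a high-fat diet plus l-NAME, a nitric oxide synthase inhibitor. The diet of 2 control pools (con) held nothing more, and that of 2 IPA pools held 562.5 mg indolepropionic acid per kg. Each pool joined 2 mice that were 15 weeks old after 7 weeks of feeding.

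The matrix holds 4 libraries, told apart by a number from 1 to 4 on each barcode, and the sources used here do not tie a number to a labelled sample. No diet was therefore compared and no test was run. Libraries 1 and 3 held nearly all lymphocytes, and each is given with its own value, as 2 pools of unknown diet.

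Cytotoxic lymphocytes store granzymes, which are serine proteases, in granules together with perforin, a pore-forming protein that lets granzymes enter a target cell. Granzyme A cuts after basic residues, granzyme B after aspartate and triggers caspases, and granzyme K shares the basic specificity of granzyme A. Fas ligand kills by a separate route, through the death receptor Fas. Ccl3, Ccl4 and Ccl5 attract T cells and myeloid cells, and Xcl1 attracts cross-presenting dendritic cells that carry Xcr1. Intraepithelial lymphocytes of the small intestine are mostly gamma-delta T cells and alpha-beta T cells with CD8 alpha homodimers, and they are known for high granzyme expression without overt killing.

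In the GRCm38 annotation, to which the mm10 build corresponds, Gzma (chr13:113093825-113100981, minus strand) and Gzmk (chr13:113171608-113225908, minus strand) are neighbours 70626 bases apart. Gzmb lies in another cluster at chr14:56258838-56262260 on the minus strand. Ccl5 (chr11:83525778-83530518, minus), Ccl3 (chr11:83647844-83649355, minus) and Ccl4 (chr11:83662584-83664683, plus) share a chemokine cluster. Xcl1 (chr1:164931644-164935527, minus) and Fasl (chr1:161780689-161788495, minus) lie on the same chromosome, Prf1 at chr10:61297833-61304680 (plus) and Nkg7 at chr7:43437073-43438249 (plus). The RefSeq promoter table (GRCm38.p6) held 8 of the 10 genes. The stretch from 250 to 11 bases before the start is shown for Gzma, Gzmb and Xcl1, because Gzmb was higher and Xcl1 lower in cells with much Gzma. Each reads 5′ to 3′ on the minus strand, at chr13:113100992-113101231, chr14:56262345-56262584 and chr1:164935533-164935772. Capitals mark matches, on either strand, to TGTGGT (the core bound by RUNX factors), TGANTCA (AP-1), GGTGTG (the core bound by T-box factors) and AGGAAG (an ETS core).
Gzma: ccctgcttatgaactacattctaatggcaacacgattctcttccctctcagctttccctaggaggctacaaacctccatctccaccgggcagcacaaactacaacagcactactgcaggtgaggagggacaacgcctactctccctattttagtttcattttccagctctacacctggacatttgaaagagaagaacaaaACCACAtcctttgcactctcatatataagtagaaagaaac
Gzmb: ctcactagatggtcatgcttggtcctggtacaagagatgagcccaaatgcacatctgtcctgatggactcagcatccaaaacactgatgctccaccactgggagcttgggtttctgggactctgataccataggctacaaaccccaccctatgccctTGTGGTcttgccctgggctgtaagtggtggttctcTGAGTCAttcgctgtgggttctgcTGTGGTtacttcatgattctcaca
Xcl1: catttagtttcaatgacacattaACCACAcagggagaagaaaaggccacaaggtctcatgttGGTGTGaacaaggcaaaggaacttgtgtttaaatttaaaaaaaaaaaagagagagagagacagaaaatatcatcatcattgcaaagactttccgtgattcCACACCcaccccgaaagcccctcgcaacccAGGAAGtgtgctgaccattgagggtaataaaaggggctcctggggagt
No match overlapped another in these 3 stretches. The Gzma stretch had 1 RUNX match and the Gzmb stretch had 2, with 1 AP-1 match between them, while the Xcl1 stretch had 1 RUNX, 2 T-box and 1 ETS match. Over the 8 genes, 6 stretches held TGTGGT, 1 TGANTCA, 3 GGTGTG and 4 AGGAAG. Of all 32851 promoters of the table, 13.6%, 6.6%, 15.7% and 28.4% held these letters in the same window. The Nkg7 stretch, which is among the 8 and held 1 TGTGGT and 1 AGGAAG match, overlapped an annotated exon of Nkg7. A match describes letters only.

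Only barcodes with 500 or more UMIs, 250 or more genes and a mitochondrial share of 25% or less entered, 6174 in library 1 and 6307 in library 3. The gates gave 60 and 229 gamma-delta T cells (CD3 genes and Trdc, without Trac), 72 and 353 alpha-beta T cells with Cd8a only, 31 and 48 with Cd8b1 (CD8 beta), 12 and 48 with Cd4, and 11 and 38 NK cells (Ncr1 or Klrb1c, without CD3 genes). A further 117 and 419 T cells held both Trdc and Trac and are given as a class of their own, with a median of 4072 and 4422 UMIs against 3454 and 3597 in gamma-delta cells. Leaving out the 6% of barcodes with the highest doublet scores kept 111 and 403 of them, and 58 and 224 gamma-delta cells. Whether they are doublets was not tested. Median depth was 2874 to 4422 UMIs per cell over these classes, against 26826 and 28030 in epithelial barcodes. The NK class is named for its gate, and NK cells were not told apart from other innate lymphocytes in it. Ncr1, a gate gene, was found in 90.9% and 81.6% of its cells, which followed from the gate. Of genes outside the gate, Eomes, a factor of circulating NK cells, was found in 9.09% and 2.63%. Itga1, an integrin gene, was found in 45.5% and 68.4%, against 76.7% and 70.7% of gamma-delta cells. Trbc2, a T cell receptor beta constant gene, was found in 36.4% and 60.5% of NK cells and in 86.7% and 86.0% of gamma-delta cells, and its part in the results was not tested. In library 3, 7 of the 229 gamma-delta cells held over 15000 UMIs each and 34.1% of all UMIs of the class. Libraries 2 and 4 held only 4 and 5 T or NK cells. Libraries 1 and 3 shared 19 barcode sequences among the kept barcodes.

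Free RNA was gauged from epithelial and B barcodes. Epithelial barcodes, which should lack Gzma, held it at 3.97 and 13.3 counts per 1000000 UMIs (CPM) in libraries 1 and 3. A Gzma UMI was found in 9.04% and 27.1% of them, which became 0.496% and 1.36% when each barcode was thinned to 1000 UMIs. Ccl5 stood at 4.68 and 19.2 CPM there, and the other 8 genes at 2.37 CPM or less. Epithelial barcodes were far deeper than lymphocytes, so these CPM and thinned shares can understate free RNA in a lymphocyte. B barcodes of library 3, of a median 3080.5 UMIs, held Gzma at 45.5 CPM, or 17.2 CPM without the top barcode. A Gzma UMI was found in 16.5% of them. In library 1 the B class held 208 CPM, of which 96.8% came from 1 barcode, and 6.63 CPM without it. T and NK cells held 92.7% and 93.0% of all Gzma UMIs and at least 66.2% of the UMIs of each of the 10 genes in both libraries. Shares under 80% were those of Ccl3 and Ccl4 in both libraries and of Prf1 in library 1. Of Ccl3, 27.4% and 14.5% lay in barcodes outside every class and without CD3 genes, and of Ccl4 18.6% and 12.1%. In library 1, 16.1% of the Prf1 UMIs lay in the B class, 14 UMIs over 11 barcodes of a median 26103 UMIs.

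**Figure D1:**
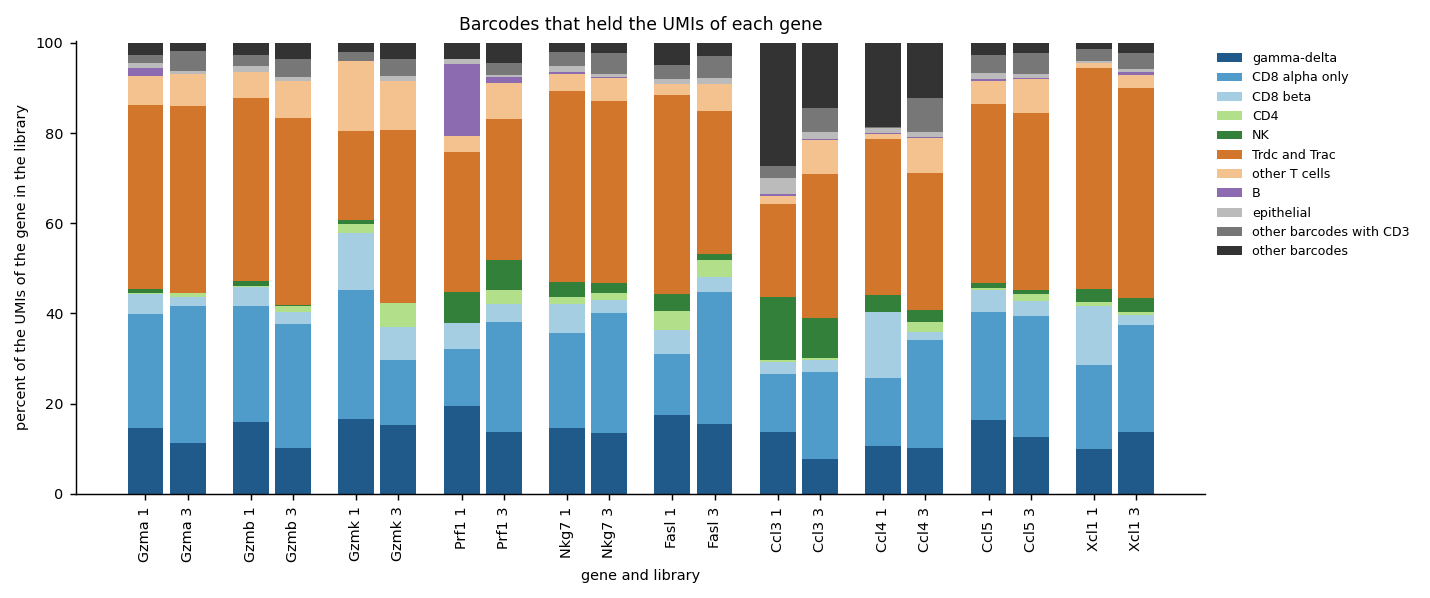
Stacked bars give, for each gene and library, the percent of that gene's UMIs that lay in each gated class and in the other barcodes. The class with both Trdc and Trac holds the largest block for Gzma (40.7% and 41.4%), and Ccl3 has the largest share outside lymphocyte classes.

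Gzma was the granzyme found at the highest level in every T cell class. It was highest in CD8 alpha only cells or in cells with both Trdc and Trac and lowest in CD4 or NK cells. In CD8 alpha only cells it was 25274 CPM in library 1 and 17394 CPM in library 3. In gamma-delta cells it was 22488 and 8644 CPM, in cells with both Trdc and Trac 23641 and 17611 CPM, and in CD8 beta cells 12112 and 10421 CPM. In CD4 cells, a class of mainly helper T cells, it was 761 and 3549 CPM. NK cells held 4852 and 362 CPM. Without the 7 large gamma-delta cells the level of library 3 was 12976 CPM. The 339 NK UMIs of library 1 came from 2 of 11 cells, and in library 3 a single cell carried 83.5% of the UMIs, without which the level was 59.7 CPM. A Gzma UMI was found in 26.3% of NK cells of library 3, against 16.5% of B and 27.1% of epithelial barcodes. The part of free RNA in the NK level was not tested. The ranges of the gamma-delta and CD8 beta classes overlapped, as did those of CD4 and NK cells. Both CD8 classes lay above both the CD4 and the NK class in each library.

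Gzmb followed the same order at a lower level. It stood at 3312 and 2004 CPM in CD8 alpha only cells, 3132 and 1016 CPM in gamma-delta cells, 1559 and 1676 CPM in CD8 beta cells, 140 and 785 CPM in CD4 cells and 601 and 153 CPM in NK cells. Gzmk, in contrast, was sparse, and its highest level was in CD8 beta cells at 115 and 59.2 CPM. Gamma-delta, CD8 alpha only and CD4 cells held Gzmk at 13.6 to 89.8 CPM, with Poisson intervals that overlapped the CD8 beta interval in library 1. NK cells held 1 Gzmk UMI in library 1 and 0 in library 3, which allows up to 11.2 CPM.

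Perforin was near the limit of detection in every class. Gamma-delta cells held Prf1 at 80.9 and 23.8 CPM, from 17 and 31 UMIs, and CD8 alpha only cells at 34.0 and 31.2 CPM. NK cells held 85.9 and 56.0 CPM, from 6 and 15 UMIs, and a Prf1 UMI was seen in 27.3% and 28.9% of NK cells against 15 of 60 and 25 of 229 gamma-delta cells. The intervals of these classes overlapped in library 1. CD4 cells of library 1 held 0 Prf1 UMIs, which allows up to 38.1 CPM, and those of library 3 held 7 UMIs, or 30.5 CPM.

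Nkg7, implicated in granule release, was found in nearly all gamma-delta and CD8 cells. It was seen in 57 of 60 and 220 of 229 gamma-delta cells, 95.8% of CD8 alpha only cells in both libraries, 96.8% and 97.9% of CD8 beta cells and 81.8% and 81.6% of NK cells. Its level was 2004 and 1151 CPM in gamma-delta cells, 1665 and 1632 CPM in CD8 beta cells and 495 and 719 CPM in CD4 cells, where 66.7% and 64.6% of cells held it. Fasl was at 33.6 to 138 CPM in all 5 classes, from 6 to 188 UMIs a class, and CD4 cells (88.8 and 105 CPM) were within the range of the others.

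Ccl5 was the chemokine of the highest level. It reached 25453 and 11174 CPM in gamma-delta cells, 24070 and 17350 CPM in CD8 alpha only cells and 14226 and 19033 CPM in CD8 beta cells, and at least 93.9% of the cells of these classes held it. CD4 cells held 1535 and 8392 CPM, and NK cells 5080 and 2984 CPM. The 3 CD8 and gamma-delta classes overlapped in range and lay above NK cells in both libraries.

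Ccl3 and Ccl4, neighbouring genes, were carried by fewer cells. Ccl4 was at 505 and 323 CPM in gamma-delta cells and 474 and 565 CPM in CD8 alpha only cells, and 38.4% to 50.4% of these cells held it. The 1286 CPM of CD8 beta cells in library 1 came to 71.9% from 1 cell and was 361 CPM without it, near the 385 CPM of library 3. CD4 cells held 0 Ccl4 UMIs in library 1, which allows 38.1 CPM, and 401 CPM in library 3. Ccl3 was highest in NK cells, at 530 and 340 CPM, but 94.6% and 47.3% of those UMIs came from 1 cell, and the level without it was 28.6 and 179 CPM. In gamma-delta cells Ccl3 was at 171 CPM in library 1 (95.2 CPM without the top cell) and 62.1 CPM in library 3, and in CD8 alpha only cells at 105 and 114 CPM.

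Xcl1 had another order. NK cells held it at 759 and 754 CPM, in 72.7% and 78.9% of cells, against 43.3% and 63.8% of gamma-delta cells, 41.7% and 61.8% of CD8 alpha only cells, 48.4% and 70.8% of CD8 beta cells and 33.3% and 35.4% of CD4 cells. Its level in CPM overlapped between NK and T cells, with 847 and 713 CPM in gamma-delta and 1043 and 904 CPM in CD8 alpha only cells. In library 1 a single cell carried 43.8% of the gamma-delta and 47.2% of the NK UMIs, and the levels without it were 476 and 401 CPM. CD8 beta cells held 2061 and 744 CPM, but 1 cell carried 199 of the 234 Xcl1 UMIs in library 1, and the level without it was 308 CPM. In library 3 it was 488 CPM without the top cell. CD4 cells were lowest, at 178 and 196 CPM.

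**Figure D2:**
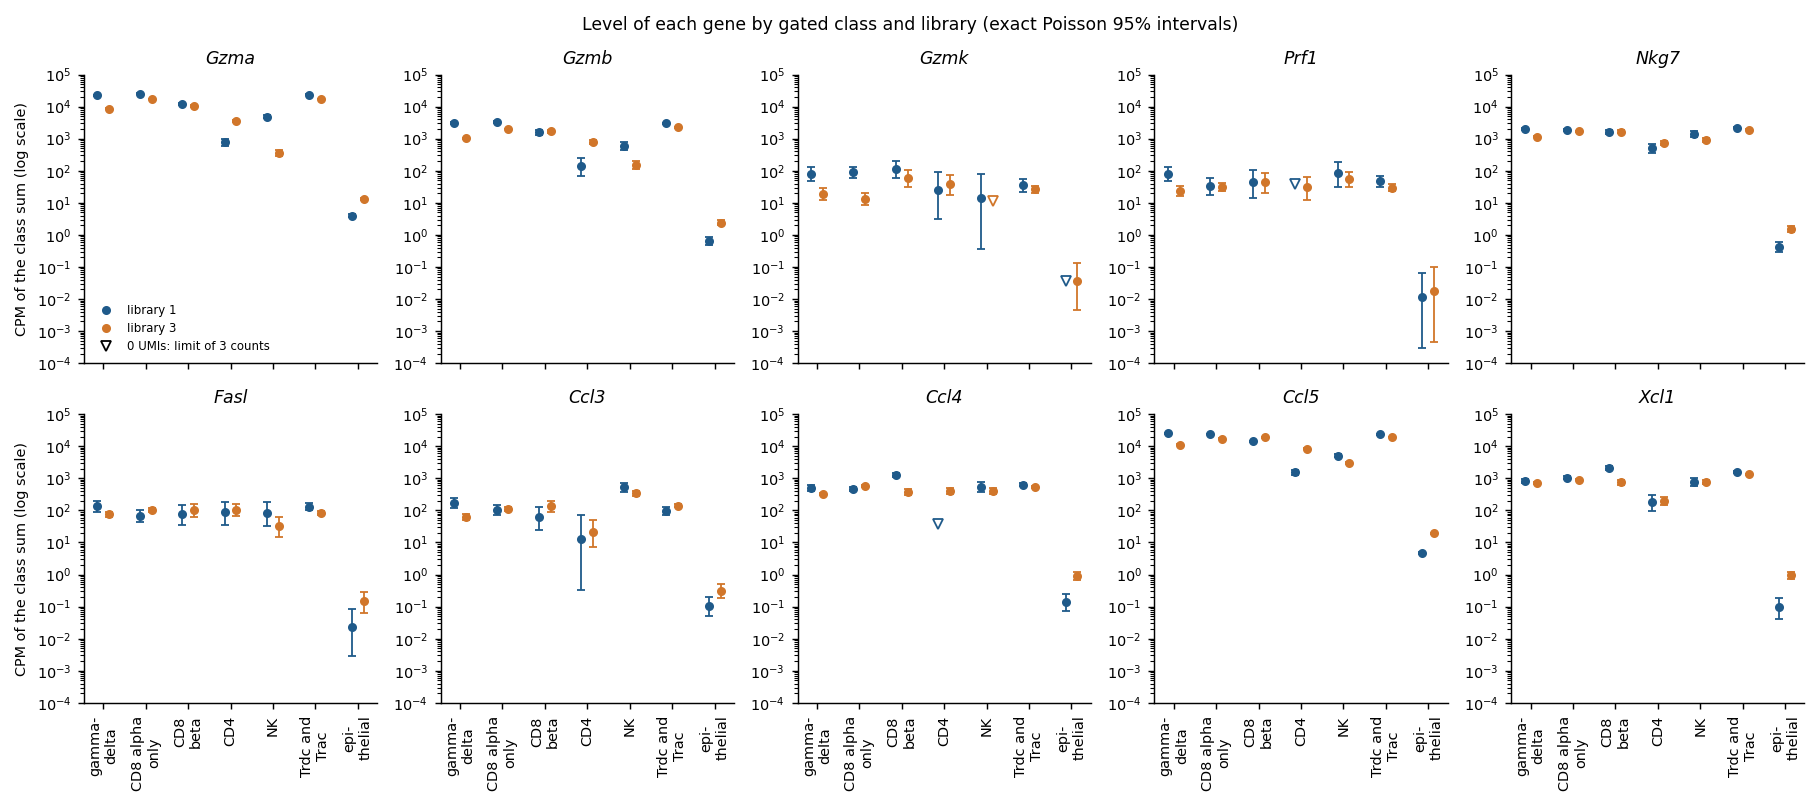
Each panel plots one gene as CPM of the summed UMIs of a class (log axis), with exact Poisson 95% intervals that cover counting error only, for library 1 and library 3. Open triangles mark a class with 0 UMIs at the limit of 3 counts. Among the lymphocyte classes, Gzma, Gzmb and Ccl5 are higher in the gamma-delta and CD8 classes and in cells with both Trdc and Trac. They are lowest in CD4 or NK cells, and epithelial barcodes lie under 20 CPM for every gene.

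A gene was called between classes where its CPM ratio was at least 2-fold in the same direction in both libraries, among genes with at least 20 UMIs over both classes in each library. Between gamma-delta and CD4 cells, 3 of 8 measured genes were called, each of them higher in gamma-delta cells. Of all 2286 genes tested, 4.86% were called in either direction and 2.84% were higher. The 3 genes were Gzma (29.5-fold and 2.44-fold), Xcl1 (4.77-fold and 3.63-fold) and Ccl3, which rested on 1 and 5 UMIs in CD4 cells. Xcl1 was no longer called without the cells of the highest doublet scores, nor Ccl3 when 2 UMIs of the defining gene were required. Gzmb, Ccl5 and Ccl4 were far apart in library 1 and within 1.33-fold in library 3, so they were not called. The library 3 ratios depended on the 7 gamma-delta cells over 15000 UMIs. Without them gamma-delta Gzmb was 1536 CPM, against 785 CPM in all CD4 cells, of which 2 were also that large. Gamma-delta Ccl5 and Ccl4 were then 16654 and 456 CPM. With at most 15000 UMIs per cell in both classes, Gzmb, Ccl5 and Ccl4 were still not called. The median log2 ratio of the 8 genes was 3.74 and 0.55, against 0.09 and -0.14 over all genes. CD4 cells numbered 12 in library 1, and these ratios are from few cells.

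Between CD8 alpha only and CD8 beta cells, 0 of 9 measured genes were called against 3.32% of 3377 genes, a share near the background. Gzma came nearest, at 2.09-fold and 1.67-fold higher in CD8 alpha only cells, and it passed under 5 alternatives, among them leaving out cells over 15000 UMIs. Between gamma-delta and CD8 alpha only cells, 0 of 10 were called against 0.267% of 4120 genes. Here 6 of the 10 genes were at most 1.12-fold apart in library 1. Prf1 was 2.38-fold, Fasl 2.03-fold and Ccl3 1.63-fold higher in gamma-delta cells there, and Xcl1 1.23-fold lower. In library 3 all 10 were lower in gamma-delta cells except Gzmk, by up to 2.01-fold. Without 7 gamma-delta cells over 15000 UMIs, Gzma, Gzmb, Ccl3, Ccl4 and Ccl5 stayed lower there than in all CD8 alpha only cells. Prf1, Nkg7, Fasl and Xcl1 did not, with Nkg7 at 1720 against 1689 CPM and Fasl at 114 against 107 CPM. The CD8 alpha only side kept its 6 such cells. The count of calls was also 0 without cells over 15000 UMIs.

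NK cells differed from gamma-delta cells in 4 of 9 measured genes, against 3.2% of 2309 genes. Gzma was 4.64-fold and 23.9-fold lower in NK cells, Gzmb 5.21-fold and 6.65-fold lower and Ccl5 5.01-fold and 3.74-fold lower. Ccl3 was higher, by 3.09-fold and 5.47-fold, and was no longer called when the cell with the most Ccl3 UMIs was left out. Nkg7, Xcl1 and Ccl4 were within 1.40-fold in both libraries.

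Gzma was present in a cell at a high level or nearly absent. Of CD8 alpha only cells, 29.2% and 32.0% held 0 Gzma UMIs, 4.17% and 5.38% held 1 to 9, and 66.7% and 62.6% held 10 or more. In gamma-delta cells the shares were 28.3% and 47.6% at 0, 6.67% and 9.61% at 1 to 9, and 65.0% and 42.8% at 10 or more. In these 2 classes few cells held 1 to 9 UMIs, just under the limit of 10, which was chosen after the distribution was seen. Median depth of the cells with 0 and with 10 or more was 3831 against 3636 and 3795 against 3798 UMIs in CD8 alpha only cells. In gamma-delta cells the Gzma-negative cells were deeper, at 3996 against 3335 and 3845 against 3067 UMIs. CD8 beta cells held fewer Gzma-high cells, 41.9% and 33.3%, CD4 cells 16.7% and 31.3%. Within those cells the CD8 beta level was like that of the other CD8 class, at 29110 and 31992 CPM against 36811 and 30465 CPM, whereas Gzma-high CD4 cells held 6645 and 7983 CPM. These were 2 and 15 cells, of which 2 and 6 held 10 to 29 UMIs, near the limit.

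**Figure D3:**
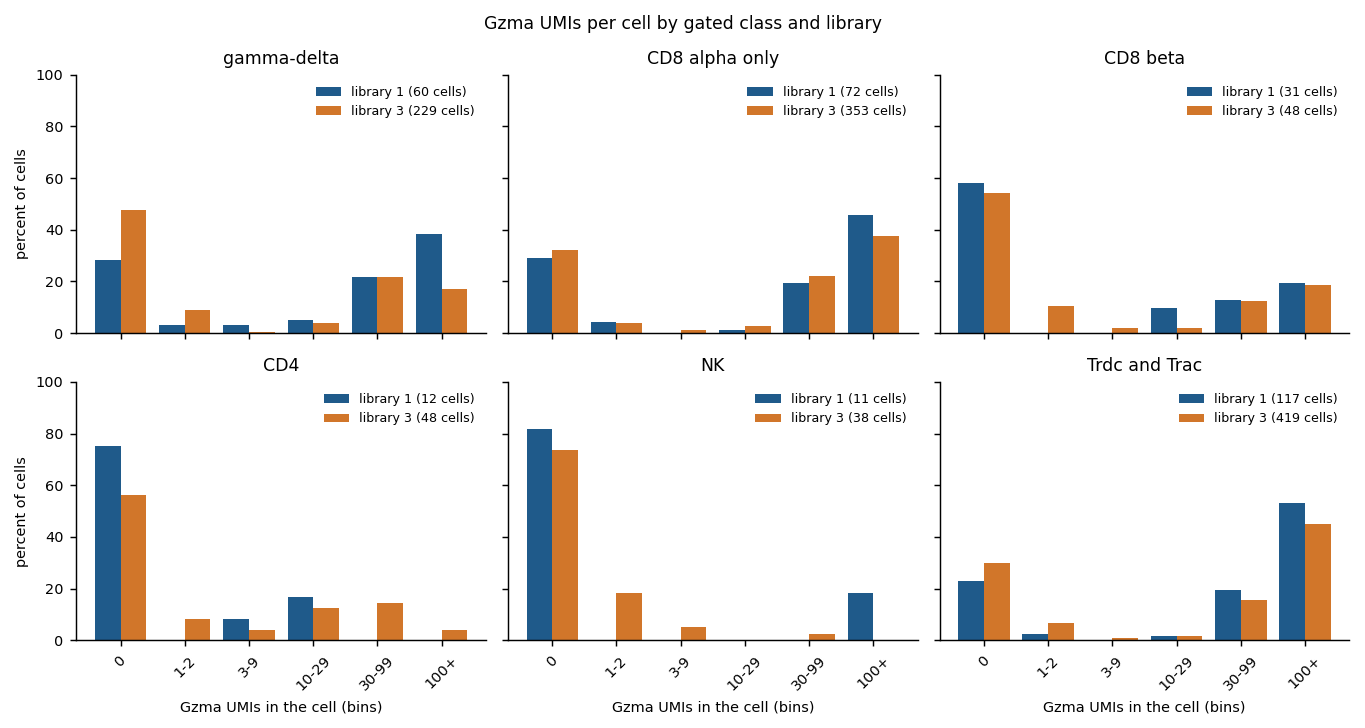
Bars give the percent of cells of each class and library in bins of Gzma UMIs per cell (0, 1-2, 3-9, 10-29, 30-99 and 100 or more). Cells gather at 0 and at 30 or more UMIs in the gamma-delta and CD8 classes, with few between, and most NK and CD4 cells sit at 0.

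The other genes were then compared between cells with 10 or more Gzma UMIs and cells with none, within a class. Gzmk in the CD8 alpha only class, and Gzmk and Prf1 in cells with both Trdc and Trac, had 0 UMIs on the Gzma-negative side in both libraries. They passed the gene filter only through the Gzma-high cells, so they had to differ and are left out of the counts. In the CD8 alpha only class 5 of the other 6 measured genes were called, against 1.84% of 2503 genes. In gamma-delta cells 5 of 7 were called against 1.49% of 1606 genes, and in cells with both Trdc and Trac 5 of the other 7 against 1.17% of 4030 genes. In each class 4 were higher and 1 was lower with Gzma. Ccl3 also had 0 UMIs on the Gzma-negative side in library 1 in the latter 2 classes. It had to differ in that library, and it is still in these 2 counts. Its call there rested on library 3, at 4.95-fold in gamma-delta cells and 3.59-fold in cells with both Trdc and Trac. Ccl4 had 1 UMI on the Gzma-negative side in gamma-delta cells of library 1. It too passed the gene filter there only through the Gzma-high cells. The same held in library 1 for Ccl3 (13.8-fold) and Ccl4 (63.4-fold) in CD8 alpha only cells. It also held for Gzmb (875-fold) and Ccl4 (60.0-fold) in cells with both Trdc and Trac. Any gene with under 20 UMIs on the Gzma-negative side passed in this way. Such genes are still in the counts, so the shares over all genes are no measure of how unusual the counts are. Gzmb, Ccl3, Ccl4 and Ccl5 were higher in Gzma-high cells in every class compared, and Xcl1 was the gene that was lower in each.

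Gzmb went with Gzma nearly cell by cell. In CD8 alpha only cells of library 3, 210 of 221 Gzma-high cells held Gzmb, at 3448 CPM, against 5 of 113 Gzma-negative cells, at 112 CPM, and the fold was 30.9. In library 1 Gzmb was 4726 against 216 CPM, a 21.8-fold difference. In gamma-delta cells Gzmb was 4724 against 640 CPM in library 1, where 3 cells carried all 50 UMIs of the Gzma-negative side, and 2667 against 80.0 CPM in library 3, where the Gzma-high side was 3759 CPM without the large cells. After thinning to 1000 UMIs, 83.6% of CD8 alpha only cells with Gzma in library 3 held Gzmb and 2.42% of those without. Pearson's r of log2 levels between Gzma and Gzmb over CD8 alpha only cells was 0.92 (72 cells) and 0.88 (353 cells), over cells of 1 library each. The levels were UMIs per 10000 UMIs of the cell, with no other correction for depth.

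Ccl5 was found in most cells of both kinds and differed in level. CD8 alpha only cells without Gzma held 6719 and 5089 CPM of Ccl5, and Gzma-high cells 32102 and 27386 CPM, 4.78-fold and 5.38-fold more. In cells without and with Gzma of library 3, Ccl4 was 149 against 888 CPM in CD8 alpha only cells and 39.1 against 825 CPM in gamma-delta cells, and Ccl3 15.7 against 187 CPM and 27.2 against 135 CPM. Both were carried by more of the Gzma-high cells. Gzmk had 0 UMIs in every Gzma-negative group of these 3 classes and 16 to 63 UMIs in the Gzma-high groups, and it passed the gene filter in 2 of the 3 classes. Prf1 in cells with both Trdc and Trac had 0 UMIs on the Gzma-negative side in both libraries and 27 and 70 UMIs on the other. Nkg7 was within 2.04-fold, and Fasl within 2.08-fold, in all 3 classes.

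Xcl1 ran the other way. CD8 alpha only cells without Gzma held Xcl1 at 1536 and 1848 CPM, in 81.0% and 89.4% of cells, and Gzma-high cells at 401 and 583 CPM, in 22.9% and 46.6% of cells. That is 3.83-fold and 3.17-fold lower with Gzma. In gamma-delta cells Xcl1 was 1883 and 1054 CPM without Gzma and 228 and 345 CPM with it, and in cells with both Trdc and Trac 4366 and 2653 CPM against 63.0 and 560 CPM. The thinned shares kept this order, with Xcl1 in 56.5% and 70.2% of CD8 alpha only cells without Gzma and 12.8% and 27.9% of those with it. In CD4 and NK cells of library 3 the thinned shares did not follow it (5 of 32 cells without Gzma and 4 of 16 with it in CD4, 18 of 34 and 2 of 4 in NK).

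Cells without Gzma also held Tcf7, a transcription factor of naive and stem-like memory T cells. In library 3 a Tcf7 UMI was found in 52.2% of Gzma-negative CD8 alpha only cells and in 0.905% of Gzma-high cells, at 219 and 1.99 CPM. In library 1 the shares were 52.4% and 0 of 48 cells, which by the limit of 3 counts allows a share of cells with a UMI of up to 6.25%. The 19 Tcf7 UMIs of library 1 were under the gene filter in this class, and Tcf7 was called lower with Gzma in cells with both Trdc and Trac. Of the regulators listed beside the members, Prdm1, which encodes Blimp-1, was higher in Gzma-high CD8 alpha only cells (74.6 against 7.84 CPM in library 3, from 75 and 4 UMIs). The cytokine gene Ltb was lower with Gzma in all 3 classes, at 530 CPM without it against 122 CPM with it and 384 against 154 CPM in CD8 alpha only cells, and so was the receptor gene Cd160, at 1580 against 370 and 1103 against 337 CPM. The granule proteoglycan gene Srgn was not called, at 1407 CPM on both sides in library 1 and 1078 against 1281 CPM in library 3.

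**Figure D4:**
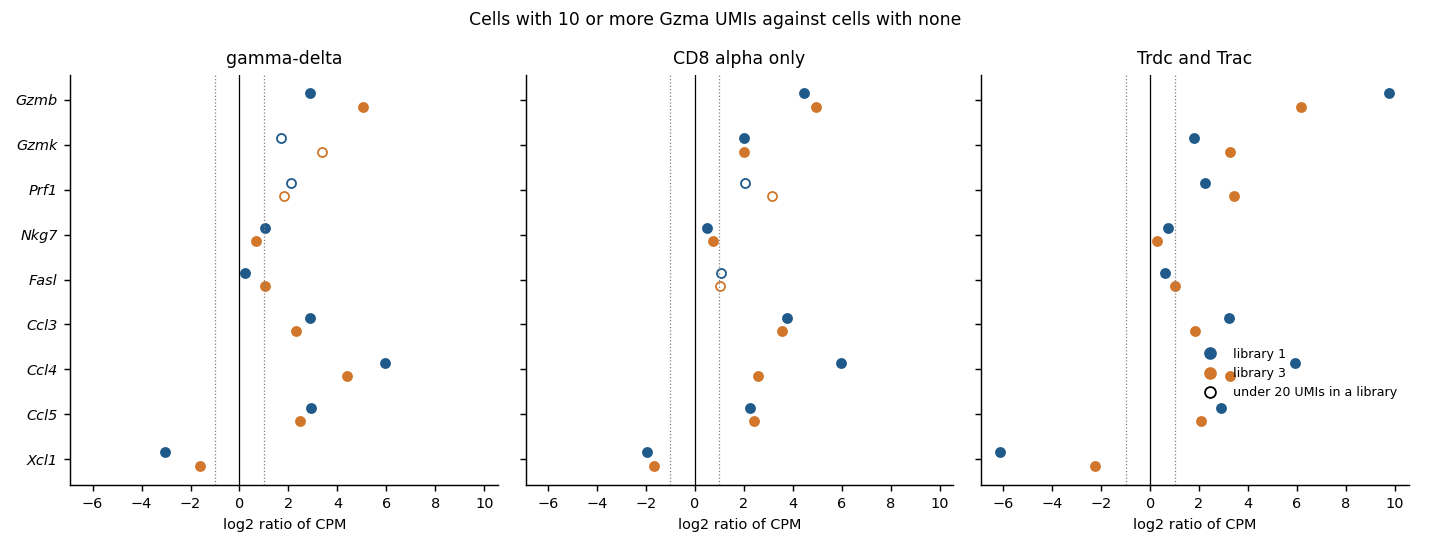
Points give the log2 ratio of CPM between cells with 10 or more Gzma UMIs and cells with none, for 9 genes in 3 classes and both libraries, with 0 UMIs set to 3 counts and dotted lines at 2-fold. Gzmb, Ccl3, Ccl4 and Ccl5 lie right of the lines and Xcl1 left of them in every class, and open circles are genes with under 20 UMIs in a library.

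**Figure D5:**
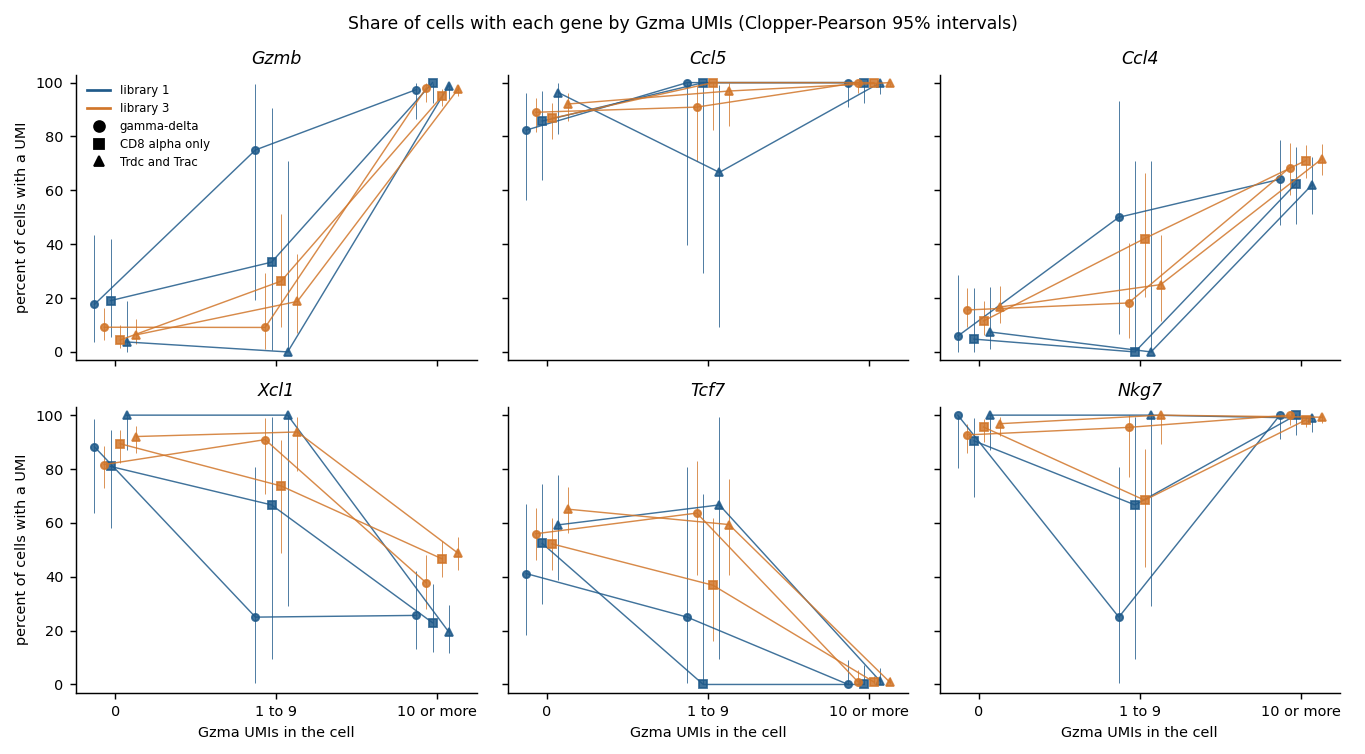
Lines join the percent of cells with at least 1 UMI of a gene across cells with 0, 1 to 9 and 10 or more Gzma UMIs, with Clopper-Pearson 95% intervals, by class and library. Gzmb and Ccl4 are higher, Xcl1 and Tcf7 lower and Nkg7 and Ccl5 near 100% at 10 or more Gzma UMIs, and the middle groups hold only 3 to 32 cells.

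Among gamma-delta cells, those with a Cd8a UMI held more of both granzymes. Gzma was 27304 CPM in 46 cells with Cd8a and 10446 CPM in 14 cells without in library 1, and 11431 CPM in 146 and 4866 CPM in 83 cells in library 3. Gzmb was 3605 against 1949 CPM and 1372 against 534 CPM. Ccl5 showed the same order, at 30609 against 12561 CPM and 13903 against 7475 CPM, and median depth of the 2 sides was 3454 against 3443 UMIs and 3625 against 3520 UMIs. Xcl1 was also higher with Cd8a (966 against 550 CPM, 923 against 428 CPM), unlike in the split by Gzma. Without the 7 large cells of library 3 the differences were smaller, Gzma at 14891 against 9241 CPM, Gzmb at 1805 against 1009 CPM, Ccl5 at 18003 against 14023 CPM and Xcl1 at 1204 against 790 CPM. A split by 1 UMI of Cd8a leaves some CD8 alpha cells on the other side.

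Between libraries 3 and 1, 6 of 10 genes passed 2-fold in gamma-delta cells, each of them lower in library 3. Of all 7655 genes, 18.7% passed in either direction and 7.64% were lower. Gzma was 2.60-fold, Gzmb 3.08-fold, Gzmk 4.22-fold, Prf1 3.41-fold, Ccl3 2.76-fold and Ccl5 2.28-fold lower. Without the 7 cells over 15000 UMIs the count was 3, and Gzma, Ccl3 and Ccl5 were no longer called, with Gzma at 12976 and Ccl5 at 16654 CPM in library 3. With all cells that held Trdc, whatever their Trac, the count was 2, and Gzma, Gzmb, Ccl3 and Ccl5 were not called. Gzma and Ccl5 were also lost with equal weight per cell, and Ccl3 without its top cell. General lymphocyte genes were lower in library 3 too, Cd3e at 904 against 1456 CPM and Ptprc at 810 against 1304 CPM, and Epcam, an epithelial gene, was higher at 661 against 195 CPM. Jchain, a plasma cell gene, was at 1007 against 38.1 CPM. Without the 7 cells Cd3e was 1347, Ptprc 1203, Epcam 297 and Jchain 17.4 CPM in library 3. Fewer gamma-delta cells were Gzma-high in library 3 (42.8% against 65.0%), a share that gives each cell the same weight. Which diet either pool received is unknown, so this difference is between 2 pools.

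The other classes gave fewer calls or rested on few cells. In CD8 alpha only cells Gzmk alone of 10 genes was called, 6.60-fold lower in library 3, against 10.7% of 8511 genes. In CD8 beta cells 3 of 9 were called against 9.39% of 2418 genes, Ccl3 higher and Ccl4 and Xcl1 lower in library 3, and 1 remained called without the cell with the most UMIs of each gene. In CD4 cells 4 of 7 were higher in library 3, where 17.0% of 2400 genes passed in either direction and 12.6% were higher. They were Gzma (4.66-fold), Gzmb (5.62-fold), Ccl5 (5.47-fold) and Ccl4, which was at 0 UMIs among 12 cells in library 1.

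Genes of the same pathway were taken from lists chosen beside the members. Of 7 other granzyme genes, 5 had no UMI in any class, Gzmm was sparse, and Gzmc was found in NK cells at 572 and 26.1 CPM, from 40 and 7 UMIs. Of 10 genes of granule cargo and release, 6 were measured between gamma-delta and CD4 cells and 2 were higher in gamma-delta cells, Ctsc, which activates granzymes, and Ctsw. Ctsw was 947 against 165 CPM and 647 against 318 CPM, while Srgn, the most abundant of the list, was not called. Of 13 NK-type receptor genes, all 5 measured were higher in gamma-delta cells (Klrd1, Cd160, Cd244a, Fcer1g and Tyrobp). In CD8 alpha only against CD8 beta cells, 5 of 7 were higher (Klrd1, Klre1, Cd244a, Fcer1g and Tyrobp). Over all genes tested, 2.84% and 2.52% were higher in these 2 comparisons. The gene filter adds both classes, and gamma-delta cells held 210112 UMIs against 78823 in CD4 cells of library 1. CD8 alpha only cells held 323060 UMIs there, against 113525 in CD8 beta cells. The filter thus favoured genes found in gamma-delta and in CD8 alpha only cells, and the rest of the list was not measured. A gene with under 20 UMIs in the smaller class passed only through the larger one and is still counted here. Fcer1g was 2427 and 1866 CPM in CD8 alpha only cells and 247 and 710 CPM in CD8 beta cells.

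Among 14 regulators, 8 were measured in each of these comparisons. Nr4a2 was higher and Hopx lower in gamma-delta than in CD4 cells, and Prdm1 was higher in CD8 alpha only than in CD8 beta cells, at 77.4 against 26.4 CPM and 45.3 against 14.8 CPM. Id2 was the most abundant in CD4 cells, at 520 and 458 CPM. Neither of the 2 measured cytokine and death-ligand genes was called in either comparison, with Ltb the most abundant in CD4 cells at 355 and 432 CPM. Of 12 other chemokines 11 were found by symbol, and Ccl25, an epithelial chemokine gene, was called between the CD8 classes, at 176 against 70.5 and 112 against 39.4 CPM, and it stood at 695 CPM in epithelial barcodes of library 3.

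Over the 10 sums of 5 classes by 2 libraries, the genes most like each member were listed by Pearson's r of log2(CPM + 10), among 3097 genes with a mean of at least 50 CPM. Gzma and Gzmb had the same 3 genes outside the member list, Mier1 (r 0.96 and 0.97), Glp1r (0.94 and 0.96) and Zdhhc18 (0.94 and 0.97), and Gzma and Gzmb themselves were at 0.98. Ccl5 was at 0.98 with Gzmb and 0.93 with Gzma, and closest outside the list to Mbd2 (0.98), Prkch (0.96) and Gpr55 (0.96). Nkg7 was closest to Litaf (0.97), Runx3 (0.97) and Ik (0.96), Fasl to Susd3 (0.89), Ccl3 to Ugcg (0.93), Ccl4 to Ipcef1 (0.98) and Xcl1 to Snap23 (0.97). These sums share libraries and depth, several hold few cells, and Gzmk and Prf1 were under 50 CPM and were not ranked.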

How the data were processed

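Droplet single-cell RNA-seq (3′ chemistry with UMIs) reached GEO as 1 matrix. Its values are the deposited UMI counts of the authors, whole numbers with no normalization. Cell Ranger 6.1.1 and mm10 are named, without a role, in the submitters' processing notes. Nothing used here gives the authors' barcode filter or annotation. The planned edgeR test of the diet was not run, since barcode numbers are not tied to samples. The samples were 2 con and 2 IPA pools.

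Barcodes were filtered (at least 500 UMIs and 250 genes, at most 25% mitochondrial UMIs) and, for lymphocytes, limited to at most 5% of UMIs from 15 epithelial genes. T cells held at least 2 CD3 UMIs. UMIs were summed per class and library with Python 3.11.15 and scipy 1.17.1. CPM have exact Poisson and shares exact Clopper-Pearson 95% intervals, for counting error only. In ratios 0 UMIs were set to 3 counts. All 10 members are named, and listed genes where called between gamma-delta and CD4 or CD8 alpha only and CD8 beta cells, or most abundant of their list. Genes compared by Gzma and by Cd8a were chosen after their values were seen. The members and lists were chosen with earlier results of these data known. Doublets were kept. Scrublet (scanpy 1.11.5) marked 4 of 6174 cells in library 1, which did not work, and 157 of 6307 in library 3, and an alternative removed the top 6%. The ratio step was tested on simulated data.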

Additional observations from a re-analysis of the deposited data

Results flagged for a closer look

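Libraries 2 and 4 entered no comparison, since they held few lymphocytes, yet both held Gzma. Library 2 held 41 Gzma UMIs in 3 of 7122 kept barcodes, 36 of them in its 4 T or NK cells. Library 4 held 240 Gzma UMIs in 7 of 6185 barcodes, 237 of them in its 5 T or NK cells. Ccl5 was also found there, with 173 and 446 UMIs.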

How the results depend on the processing

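No paired analysis was possible because no barcode number is tied to a labelled sample, so no test between con and IPA samples was run. The count of called genes changed by over 1.5 times in these cases, and the cause was not tested unless the alternative itself shows it. CD8 alpha only against CD8 beta went from 0 to 1 (Gzma, higher) with 2 UMIs of the defining gene, with equal weight per cell, at a fold of 1.5, with at most 15000 UMIs per cell and without the top cell of each gene. Gamma-delta against CD4 went from 3 to 5 when all cells with Trdc were taken. Library 3 against 1 went from 6 to 2 in gamma-delta cells with that gate and to 3 with at most 15000 UMIs. In CD8 alpha only cells it went from 1 to 0 with a gene filter of 100 UMIs, to 3 at a fold of 1.5 and to 2 with Trac required. In CD8 beta cells it went from 3 to 1 without the top cell. With Gzmk and Prf1 counted, the split by Gzma in cells with both Trdc and Trac went from 7 to 4 with the filter of 100 UMIs, which left 5 genes measured. Gzmb, Ccl4 and Ccl5 stayed higher and Xcl1 lower with Gzma in all 3 classes under each alternative that measured them. The settings on 15000 UMIs, on Trdc and Trac, on the top cell and on the Gzma limits were added after the data were seen. Of 100 class levels, 55 moved beyond their counting interval with equal weight per cell and 46 with at most 15000 UMIs, and 0 with at least 1000 UMIs and 500 genes. Of 100 shares of cells, 20 moved with thinning to 2000 UMIs. CD4 and NK cells of library 1, 12 and 11 cells, limit what can be read from them.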

Other observations

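Outside the gates, 9 barcodes (4 in library 1, 5 in library 3) held no CD3 UMI, were not in the NK class and yet carried at least 10 Gzma UMIs each, 2000 in all and up to 546 in a barcode. All 9 held Cd7, Tyrobp, Fcer1g and Ccl5, 8 held Nkg7 and Itgae, and 6 held Gzmb. Ncr1, Klrb1c and Prf1 were at 0 in all 9, Trbc2 was found in 4 and Trdc in 1. They were chosen after their values were seen, and 7 of them also held Igha UMIs, 11 in all.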
